A study of Rattus norvegicus with 3 samples.

Results

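Cytotoxic lymphocytes were followed through 10 genes in rat tibialis anterior muscle: the granzymes Gzma, Gzmb and Gzmk, the perforin gene Prf1, the cytokine gene Ifng, the granule membrane gene Nkg7, and the T cell surface genes Cd8a, Cd8b, Cd3e and Cd2. These 10, of 14506 genes with a level in the data, were chosen from earlier results of the same arrays, in which several stood among the large differences, so every value below is a description and none is a test. Each gene had 1 probe set, found through its symbol in the platform annotation. All are textbook cytotoxic or T cell genes, but natural killer cells also express granzymes, Prf1, Nkg7, Cd2 and, in rats, commonly Cd8a, so these do not mark T cells alone.

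Cytotoxic lymphocytes kill a target cell by releasing granules. Perforin opens the target's membrane and granzymes, a family of serine proteases, enter and cleave proteins inside; Nkg7 sits in the granule membrane and aids its release. Interferon gamma, made by the same cells, switches on chemokine and antigen presentation genes in its surroundings. CD8, a pair of chains encoded by Cd8a and Cd8b, helps the T cell receptor bind class I molecules, Cd3e belongs to the receptor's signalling complex, and Cd2 is an adhesion molecule of T and natural killer cells. The granzymes are not a uniform set: Gzmb is typical of freshly activated effector cells, and Gzmk is better known from memory-type CD8 T cells.

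The arrays came from male Wistar rats aged 11 weeks, all fed a high fat diet (45% of energy) for 3 weeks. After 2 weeks of it, 150 µg of plasmid was electroporated into the muscle, which was taken 8 days later. The control group received pcDNA3.1 without insert, the Plin5 group pcDNA3.1-CMV-Plin5 (OXPAT), and the Plin2 group pENTR-CMV-Plin2 (ADRP). Perilipins 2 and 5 coat lipid droplets, and the CMV promoter is active in most cell types, so expression is not limited to muscle fibres by design. Plin2 and its plasmid backbone cannot be told apart, because the backbone differed from that of the other groups. Each group was 1 array of RNA pooled from 6 rats. There is therefore no replicate, no spread between animals and no p-value, and precision is limited by this number of arrays. All 3 arrays are of electroporated muscle, and muscle without plasmid was not analysed here. Plin5 stood at 7.52, 6.79 and 8.30 on the empty vector, Plin2 and Plin5 arrays, and Plin2 at 9.99, 10.71 and 10.08, so each introduced gene was highest on its own array. In bulk muscle RNA, more cells of a type and more RNA per cell cannot be told apart.

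Values are log2 RMA levels, and a difference is one array's level minus another's. A gene counted as higher or lower when it differed by at least 1.5-fold, which is 0.58 on the log2 scale. For counts over the whole array, genes with a mean level under the 25th percentile (5.34, called dim) were left out, which kept 10879 genes. All 10 cytotoxic genes passed this filter, and none had equal values on any pair of arrays, whereas 2673 of the 10879 genes were equal on all 3. The tissue label held: 11 of 11 muscle fibre markers had levels between 11.68 and 14.04 on every array. Levels of different probe sets are not comparable, so only differences are set side by side between genes.

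Of the 10 genes, Gzma and Gzmk lay furthest apart on the Plin5 array against the empty vector, and they are neighbours on rat chromosome 2, on the same strand, with 0 annotated genes between them in RefSeq. Their upstream sequences are shown for that reason, with those of Gzmb, which had the array order of Gzma, and Cd8a, which was nearly level between the Plin5 and empty vector arrays. Each is the 250 bases before the RefSeq gene start, 5′ to 3′ on the gene's strand, from RefSeq (build GRCr8). Gzma lies on the minus strand at chr2:46485697-46485946, Gzmk on the minus strand at chr2:46582016-46582265, Gzmb on the minus strand at chr15:34462470-34462719, and Cd8a on the plus strand at chr4:104923866-104924115. Capitals mark matches on either strand to 4 short motifs of factors that act in lymphocytes.
Gzma: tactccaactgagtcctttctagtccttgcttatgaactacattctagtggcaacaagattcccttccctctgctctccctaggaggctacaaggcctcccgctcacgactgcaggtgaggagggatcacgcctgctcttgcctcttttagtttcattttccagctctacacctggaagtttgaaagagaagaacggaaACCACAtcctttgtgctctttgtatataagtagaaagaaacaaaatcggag
Gzmk: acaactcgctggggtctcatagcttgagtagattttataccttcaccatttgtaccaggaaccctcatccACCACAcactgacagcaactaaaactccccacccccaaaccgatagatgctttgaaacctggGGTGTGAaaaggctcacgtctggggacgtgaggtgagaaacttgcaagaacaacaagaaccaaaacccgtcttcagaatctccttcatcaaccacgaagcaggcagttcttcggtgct
Gzmb: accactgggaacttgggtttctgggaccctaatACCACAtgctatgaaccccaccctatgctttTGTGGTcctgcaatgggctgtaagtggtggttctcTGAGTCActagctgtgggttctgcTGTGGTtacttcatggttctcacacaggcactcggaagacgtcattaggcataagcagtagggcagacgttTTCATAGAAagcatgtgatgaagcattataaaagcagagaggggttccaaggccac
Cd8a: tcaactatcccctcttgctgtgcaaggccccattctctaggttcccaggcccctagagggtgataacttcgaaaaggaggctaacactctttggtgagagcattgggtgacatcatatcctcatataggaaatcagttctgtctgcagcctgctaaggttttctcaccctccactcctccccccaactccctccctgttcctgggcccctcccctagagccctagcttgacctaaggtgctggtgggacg

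The RUNX motif (TGTGGT, or ACCACA on the other strand) had 1 match in the Gzma window, 1 in Gzmk and 3 in Gzmb, and 14.1% of all 27457 windows of this length hold it. A T-box motif (GGTGTGA, or TCACACC on the other strand; 3.19% of windows) was matched in Gzmk alone of the 9 members with a window. Gzmb also held an AP-1 motif (TGANTCA; 6.36% of windows), matched as TGAGTCA, and a STAT motif (TTCNNNGAA; 7.52% of windows), matched as TTCATAGAA. Matches did not overlap one another in these windows. The Cd8a window had 0 matches. Of the 9 members with a window, 6 held the RUNX motif, the others being Prf1, Nkg7 and Cd2. These are matches of letters and show neither binding nor use.

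The Plin2 array had the highest level of every one of the 10 genes. Against the empty vector the differences ran from 0.83 for Cd2 to 2.14 for Gzmb, with a median of 1.32 (2.49-fold), while the median over all 10879 genes was 0.00. All 10 were higher by at least 1.5-fold, beside 8.84% of all genes higher and 5.8% lower. Since these differences chose the genes, nothing is read from that count. The whole-array balance depended on scaling, with 962 genes higher and 631 lower as deposited, and 775 and 819 after median-centring, which sets the median gene of all arrays to one level. That median gene lay 0.08 higher on the Plin2 array and at -0.04 on the Plin5 array, each against the empty vector, so smaller differences have no settled direction.

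Gzmb and Gzma, which cleave after acidic and after basic residues, had the largest differences of the list. Gzmb stood at 8.30 on the empty vector array, 10.44 on the Plin2 array and 9.09 on the Plin5 array. Its Plin2 difference of 2.14 is 4.41-fold, the 6th highest of the 10879 genes, and the Plin5 difference was 0.79 (1.73-fold). For Gzma the levels were 6.23, 8.30 and 7.48, in the same order of arrays. The Plin2 difference was 2.07 (4.20-fold), rank 8 from the top. Its Plin5 difference of 1.25 (2.38-fold) was the highest of all genes past the dim filter. Both granzymes thus had the order empty vector, Plin5, Plin2 from low to high.

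Gzmk, a trypsin-like granzyme, had another order. Its level was 6.89 on the empty vector array, 8.13 on the Plin2 array and 6.13 on the Plin5 array. It was higher by 1.24 (2.36-fold) with Plin2 and lower with Plin5 by a difference of -0.76 (1.69-fold), rank 75 from the bottom. The Gzma to Gzmk ratio therefore differed by 2.01 log2 units (4.02-fold) between the Plin5 and empty vector arrays. With Plin2 the same ratio differed by 0.83 (1.78-fold). A shift common to a whole array cancels in these ratios.

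Prf1 and Nkg7 lay between these patterns. Prf1 stood at 7.54, 9.01 and 7.72 on the empty vector, Plin2 and Plin5 arrays. Nkg7 stood at 10.11, 11.39 and 10.36. With Plin2 they were higher by 1.46 (2.75-fold) and 1.27 (2.42-fold). With Plin5 the differences were 0.18 and 0.24, short of 1.5-fold. Perforin was thus past the threshold on the Plin2 array, while Gzma and Gzmb were past it on both.

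Ifng was the dimmest of the 10 probe sets, with levels of 5.24, 6.54 and 6.15. The empty vector value lies under the dim level of 5.34, so the sizes of its differences from that array, 1.30 (2.47-fold) with Plin2 and 0.91 (1.88-fold) with Plin5, are uncertain, and so is its side of the threshold wherever these are used below. Of the 10 genes it had the smallest gap between the Plin5 and Plin2 arrays, at -0.39 (1.31-fold).

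**Figure D1:**
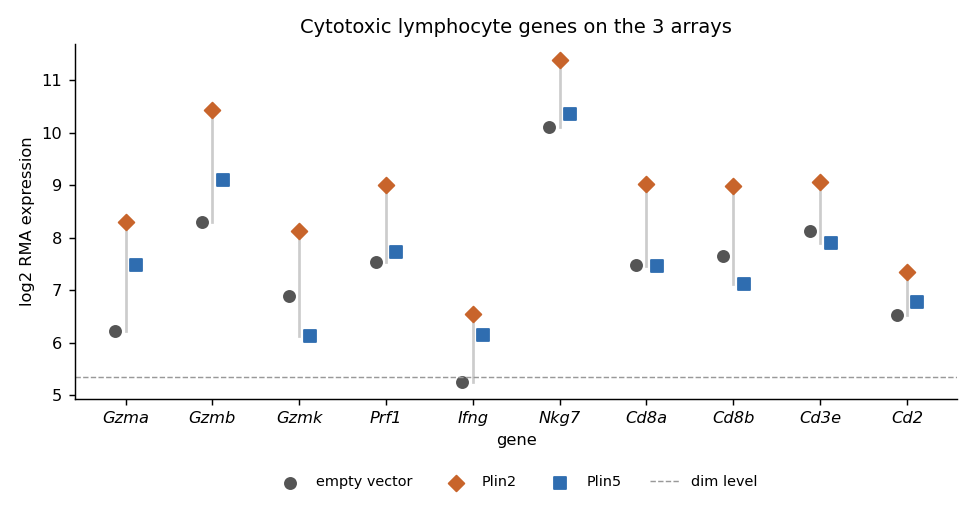
Levels of the 10 genes on the 3 arrays, 1 point per array; the vertical axis is the log2 RMA level and the dashed line is the dim level of 5.34. The Plin2 point is the highest for each gene, and the Plin5 point lies above the empty vector point for 6 genes (Gzma, Gzmb, Prf1, Ifng, Nkg7 and Cd2) and below it for 4 (Gzmk, Cd8a, Cd8b and Cd3e); there is 1 array per group, so no error bar is drawn.

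The T cell surface genes were high on the Plin2 array and close to or under the control on the Plin5 array. Cd8a stood at 7.48, 9.02 and 7.46 on the empty vector, Plin2 and Plin5 arrays. It was higher by 1.54 (2.92-fold) with Plin2. With Plin5 the difference was -0.02, and its sign turned after median-centring or quantile normalization (0.02 in each). The partner chain Cd8b stood at 7.65, 8.99 and 7.11. Its differences were 1.33 (2.52-fold) with Plin2 and -0.54 with Plin5 (1.45-fold), just short of the threshold. The Cd8a difference with Plin5 thus exceeded that of its partner chain by 0.52. Some lymphocytes, natural killer cells among them, carry Cd8a without Cd8b.

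Cd3e, found on all T cells, stood at 8.12, 9.06 and 7.90, giving differences of 0.93 (1.91-fold) with Plin2 and -0.23 with Plin5. Cd2 stood at 6.52, 7.35 and 6.78, with differences of 0.83 (1.78-fold) and 0.26. These 2 genes had the smallest Plin2 differences of the list. Cd2 was the one T cell surface gene above the control on the Plin5 array in all settings tried.

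Against the empty vector, the Plin5 array thus held the 10 genes on both sides of the control. Their differences ran from -0.76 to 1.25 with a median of 0.21, beside 0.00 over all genes. Gzma, Gzmb and Ifng were higher by at least 1.5-fold, Gzmk was lower, and 6 were short of the threshold. Over all genes 0.221% were higher and 1.42% lower by that much. Because these values are among those that chose the genes, the counts carry no weight of their own. Lower calls were the more common side of this comparison over the whole array (24 genes higher, 154 lower).

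**Figure D2:**
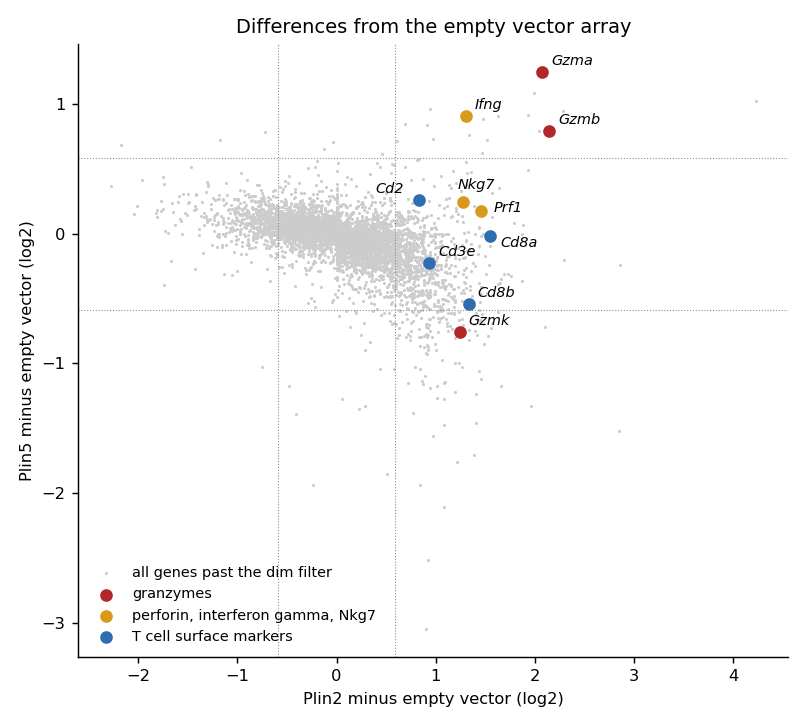
Log2 difference from the empty vector array with Plin2 (horizontal) and Plin5 (vertical) for each gene; coloured points are the 10 genes, grey points the 10879 genes past the dim filter, and dotted lines mark 1.5-fold. Gzma, Gzmb and Ifng lie past the upper line and Gzmk past the lower one, while all 10 lie to the right of 0.58; both axes share the empty vector array, so a slope in the grey cloud has no reading here.

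Set against the 4 T cell surface genes, the granzymes separated into 2 kinds. With Plin5 the Gzma difference exceeded each of theirs, by 0.99 (against Cd2) to 1.79 (against Cd8b), and that of Gzmb did so by 0.53 to 1.33. Gzmk went the other way, from -0.22 against Cd8b to -1.02 against Cd2. Prf1 and Nkg7 exceeded Cd8a, Cd8b and Cd3e, and were within 0.08 of Cd2.

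With Plin2 the separation was the same for Gzma and Gzmb and different for Gzmk. Gzma exceeded the 4 surface genes by 0.53 to 1.24 and Gzmb by 0.60 to 1.31. Gzmk lay among them, from -0.30 against Cd8a to 0.41 against Cd2, and so did Nkg7 (-0.27 to 0.44). Against the empty vector, Gzma and Gzmb were therefore the pair that exceeded every T cell surface gene on both arrays. Both comparisons use the same empty vector array, so they are not independent. Between the Plin5 and Plin2 arrays the pair did not stand apart in this way. There Gzma ran from -0.25 against Cd2 to 1.05 against Cd8b, and Gzmb from -0.78 to 0.53 against the same genes.

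**Figure D3:**
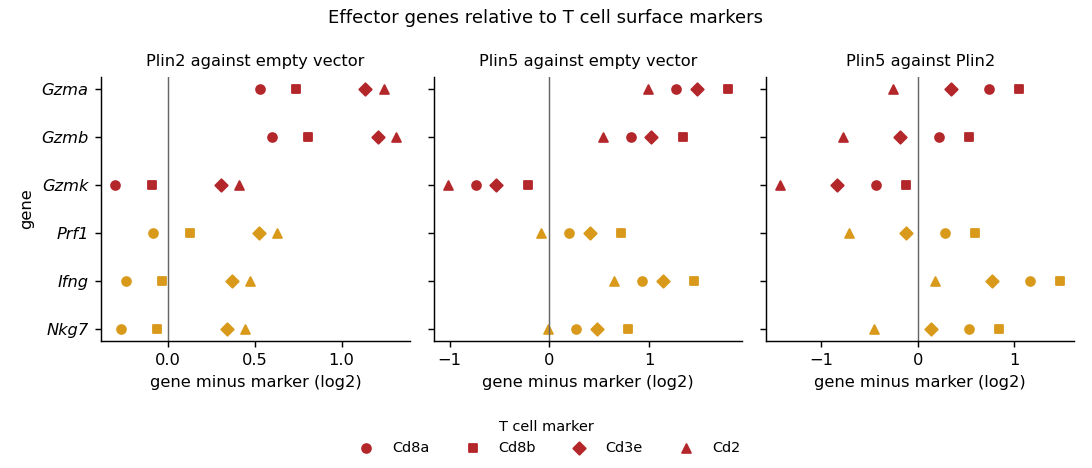
Difference of each effector gene (rows) minus that of each T cell surface gene (symbols), in log2 units, for the 3 comparisons. In the middle panel all 4 symbols of Gzma, Gzmb and Ifng lie right of 0 and all 4 of Gzmk lie left of it; in the left panel only Gzma and Gzmb have all 4 to the right. In the right panel, which leaves out the empty vector array, only Ifng has all 4 to the right and Gzmk has all 4 to the left. The left and middle positions of Ifng rest on a dim empty vector value.

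Set directly against each other, the Plin5 and Plin2 arrays were far apart for these genes. All 10 genes had lower levels on the Plin5 array, from -0.39 for Ifng to -2.00 for Gzmk, with a median of -1.22 (2.33-fold). Past 1.5-fold were 8 genes, all but Ifng and Cd2 (-0.57, 1.48-fold), beside 11.3% of all genes lower and 7.19% higher. These genes were chosen from differences that include this one. The Cd8b gap (-1.87, 3.67-fold) and Cd8a gap (-1.56, 2.95-fold) followed that of Gzmk in size. Gzmb (-1.35), Prf1 (-1.28), Cd3e (-1.16), Nkg7 (-1.03) and Gzma (-0.82) came next. Median-centring shifted this comparison by 0.12 for all genes and left 8 genes past the threshold; the whole-array counts were 782 higher and 1225 lower as deposited, and 1109 and 979 when centred.

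Other granzymes were measured in part. Of 7 listed, 3 had a probe set and 2 passed the dim filter. Gzmc, a neighbour of Gzmb on chromosome 15, stood at 5.51, 6.81 and 6.06 on the empty vector, Plin2 and Plin5 arrays, with differences of 1.31 and 0.55. Gzmm, on the other hand, stood at 8.14, 8.93 and 7.79, with differences of 0.79 and -0.35. Thus Gzmc had the array order of Gzmb, and Gzmm that of Gzmk. The empty vector level of Gzmc is little above the dim level of 5.34, so the sizes of its differences are uncertain. Its Plin5 difference was short of 1.5-fold. Gzmb has close relatives beside it, and binding of their transcripts to its probes was not tested.

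Other genes of the lytic granule and of killing were mostly above the control with Plin2, with Lamp1 nearly level at 0.01. This list holds the packing proteoglycan, the protease that activates granzymes and the docking and fusion proteins of granule release, and also death ligands such as Tnfsf10 (TRAIL), the protease Ctsw, and the receptor and adaptor genes Crtam and Hcst. With Plin2, 6 of 11 genes past the dim filter were higher by at least 1.5-fold and 0 lower, with a median of 0.65. Over all genes 8.84% were higher and 5.8% lower by that much. Stxbp2, which acts in granule fusion, was at 0.94, Serpinb9, an inhibitor of granzyme B, at 0.85, Ctsc, the granzyme-activating protease, at 0.75, and Tnfsf10 at 0.72. With Plin5 the median was 0.00, and Unc13d, a docking protein, was the 1 gene past the threshold (-0.72), beside 1.42% of all genes lower. Ctsc was at -0.34.

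T cell receptor signalling genes had the pattern of the T cell surface genes. All 18 were above the control with Plin2, with a median of 0.78. By at least 1.5-fold 15 of them were higher, beside 8.84% of all genes. With Plin5 the median was -0.28, with 14 of 18 below the control. Over all 10879 genes, 4368 were equal between the Plin5 and empty vector arrays, and the median was 0.00. The shares of all genes above or below the control by any amount were not counted, so list counts of that kind have no background beside them. Past the threshold with Plin5 were the adaptor Lcp2 (-0.76) and the surface protein Cd7 (-0.79), beside 1.42% of all genes lower. Ptprc, the CD45 phosphatase of all leukocytes, was at 1.04 with Plin2 and -0.57 with Plin5.

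Most genes of the natural killer cell list likewise were below the control with Plin5. Of 12 past the dim filter, 10 were below it and 2 equal to it, with a median of -0.32. With Plin2 all 12 were above, with a median of 0.88, and 9 were past 1.5-fold, beside 8.84% of all genes. The activating receptor gene Klrk1 stood at 9.67, 11.02 and 9.23, and Klri1 at 7.12, 8.21 and 6.69. Fcgr3a was at 1.44 with Plin2 and -1.06 with Plin5; macrophages express it too, as they do Tyrobp. The natural killer receptors Ncr1 and Ncr3 were nearly level, at 0.12 with Plin2 and 0.00 with Plin5. Ncr1 stood at 5.63, 5.76 and 5.63, and Ncr3 at 5.64, 5.75 and 5.64. These levels are little above the dim level of 5.34, so a change in either could be missed.

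**Figure D4:**
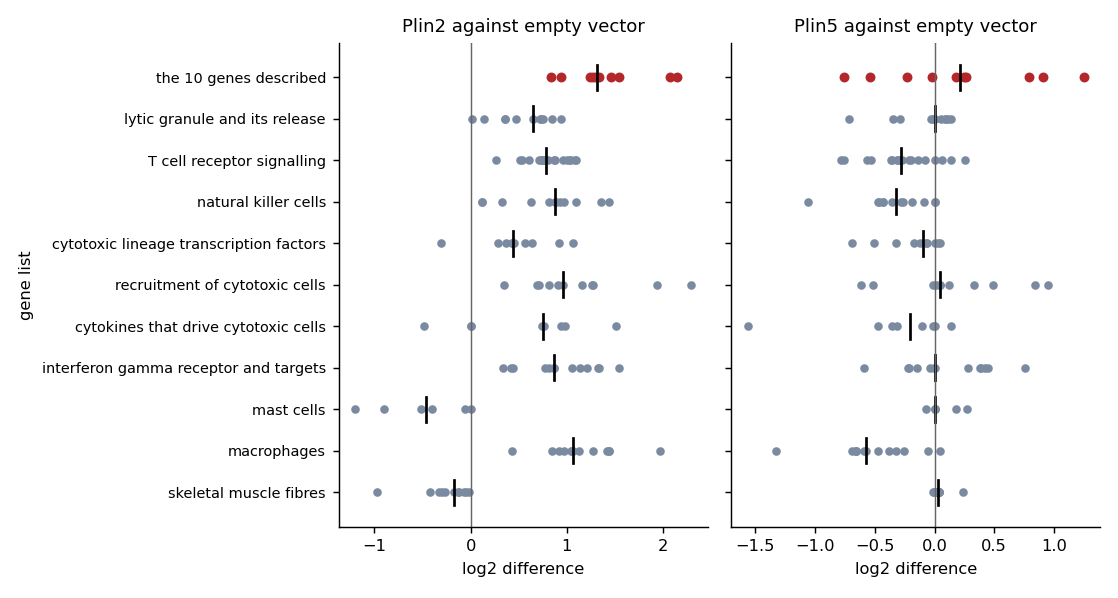
Log2 differences from the empty vector array for the 10 genes (red) and for the genes past the dim filter of each list (grey), with black bars at the medians; the left panel is Plin2 and the right panel Plin5. On the right the T cell receptor, natural killer and macrophage lists have medians of -0.28, -0.32 and -0.58, and the 10 genes a median of 0.21 with points from -0.76 to 1.25.

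Transcription factors of cytotoxic cells differed modestly. With Plin2, 3 of 10 were higher by at least 1.5-fold (median 0.44), beside 8.84% of all genes. Runx3 (0.91) and Tox (1.06) were among them. With Plin5 the median was -0.10. Tcf7, a factor of naive and memory T cells, was at -0.69 there, and Tox at -0.51, and Runx3 at -0.17. Tbx21, which encodes T-bet, a direct regulator of Ifng, was at 0.43 with Plin2 and 0.04 with Plin5.

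Chemokines and adhesion genes of cytotoxic cell recruitment split on the Plin5 array. With Plin2, 10 of 11 were higher by at least 1.5-fold (median 0.96), beside 8.84% of all genes. With Plin5 the median was 0.05. Cxcl11, a ligand of the chemokine receptor Cxcr3, stood at 9.07, 11.35 and 10.01, so it was at 0.95 with Plin5. Its relative Cxcl10 was at 0.49 and Cxcl9 at 0.84, whereas the receptor gene Cxcr3 itself was at -0.02. The integrin chains Itgal (-0.61) and Itgb2 (-0.52) were below the control. Cxcl9, Cxcr3 and Itgal fall outside the naming rule, as do Lamp1, Unc13d, Tnfsf10, Ncr1, Ncr3 and Tbx21, and were picked after their values were seen.

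Genes of the interferon gamma response also lay on both sides with Plin5, with 1 gene higher and 1 lower by at least 1.5-fold (median 0.01). Over all genes 0.221% were higher and 1.42% lower by that much. Irf1, a transcription factor induced by interferon gamma, stood at 8.80, 10.13 and 9.55, a difference of 0.76. Socs1, a feedback inhibitor, was at 0.42. The class II gene RT1-Da, the 1 lower gene, stood at 10.70, 11.57 and 10.11. Its difference of -0.587 only just reached the threshold of 0.585, so that call is borderline. With Plin2, 10 of 13 were higher by at least 1.5-fold and 0 lower, beside 8.84% and 5.8% of all genes. The list's median was 0.87, and Socs1 was at 1.54.

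Among cytokines and receptors that drive cytotoxic cells, 5 of 8 past the dim filter were higher by at least 1.5-fold with Plin2. Over all genes that share was 8.84%, and the list's median was 0.75. Another 2 were equal to the control and Il15 was below it. Il15, a cytokine that sustains CD8 T cells and natural killer cells, stood at 8.54, 8.06 and 8.67 on the empty vector, Plin2 and Plin5 arrays, so it was lowest where the 10 genes were highest; it too was picked after its values were seen. Il18 stood at 7.01, 8.52 and 6.70, and Il12rb2, a chain of the interleukin 12 receptor, at 6.54, 7.48 and 6.19. Il7r, the receptor gene of naive and memory T cells, stood at 7.52, 8.50 and 5.96, a difference of -1.56 with Plin5. The list's median with Plin5 was -0.21.

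Genes with the pattern closest to Gzma were sought by the distance between pairs of differences (Plin2 and Plin5, each against the empty vector), over the 3 arrays. The 10 genes themselves were left out of the search, so Gzmb (2.14 and 0.79) was not ranked. The nearest was the chemokine Ccl12, at a distance of 0.18 log2 units, with differences of 1.99 and 1.09. Then came Fcnb (0.36), Cxcl11 (0.37), Sucnr1 (0.46) and Ass1 (0.56). Nearest to Cd8a were Tfec (0.07), Cd180 (0.08), Gjd4 (0.08), Timd2 (0.12) and Hmox1 (0.13). Gjd4 stood at 5.19, 6.65 and 5.17 on the empty vector, Plin2 and Plin5 arrays, and Timd2 at 5.15, 6.59 and 5.19. Both were under the dim level on the empty vector and Plin5 arrays, so their closeness to Cd8a is uncertain. No gene of the T cell receptor or natural killer lists was among either set of 5, and with 3 arrays many genes can share a pattern.

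Macrophage markers moved with the cytotoxic genes on the Plin2 array and not with Gzma, Gzmb and Ifng on the Plin5 array. All 13 were above the control with Plin2 (median 1.06), and 12 of 13 were below it with Plin5 (median -0.58). Of these 12, 6 were lower by at least 1.5-fold, beside 1.42% of all genes. Their levels ranged from 7.11 to 10.56 on the empty vector array, 8.17 to 12.00 on the Plin2 array and 6.48 to 10.09 on the Plin5 array. Muscle fibre markers were all below the control with Plin2 (median -0.17) and had a median of 0.03 with Plin5. Myh2, a myosin of fast oxidative fibres, was the 1 marker past the threshold, at -0.98 with Plin2 and 0.24 with Plin5. Over all genes 5.8% were lower by at least 1.5-fold with Plin2. The part of either in the results above was not tested.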

How the data were processed

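RNA from 3 pools of rat muscle, 6 rats each, was measured on 3 arrays. The deposited values are log2 expression levels from RMA (background correction, quantile normalization, median polish), per the submitters' processing notes; its version was not stated, and the log2 base was taken from the range of the values. Of 29214 probe sets, the 15310 with exactly 1 gene symbol were used; 323 had several and 13581 were unnamed here. The probe set with the highest mean stood for each of 14506 genes. Differences between arrays were computed with no test, since a group is 1 array. RefSeq (GRCr8) gave names, gene order and upstream sequences; all 10 members matched by gene number, 9 had a sequence, and 1 list symbol was updated through a synonym.

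The members, gene lists, thresholds and alternatives were chosen with earlier results of these data known. Genes named are all members and up to 3 genes per list past the dim filter with the largest difference in any comparison. The 5 nearest to Gzma and to Cd8a are also named (members and provisional symbols left out). Motifs were chosen after the values were known. Forced equal distributions hide changes in total RNA, and arrays compress bright signals. Alternatives were the fold threshold, the dim filter, median-centring, quantile normalization and averaging of probe sets. Counting was tested on simulated data. Python 3.11.15, numpy 2.4.6, pandas 2.3.3 and matplotlib 3.10.9 were used.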

Additional observations from a re-analysis of the deposited data

How the results depend on the processing

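With 1 array per group, alternatives show only how the values move with the processing, not how they would repeat. No paired analysis was possible because each group has 1 array. The number of the 10 genes past 1.5-fold was 10, 4 and 8 for Plin2 against empty vector, Plin5 against empty vector and Plin5 against Plin2. It was the same under median-centring and quantile normalization. Averaging of probe sets could not change it, because each of the 10 genes had 1 probe set. A 2-fold threshold left 8, 1 (Gzma) and 7, and a 1.2-fold threshold gave 10, 5 and 10. The median difference over the 10 genes, in the same order of comparisons, was 1.23, 0.25 and -1.10 after median-centring and 1.30, 0.22 and -1.16 after quantile normalization. Of the 30 differences of single genes, Cd8a with Plin5 was the one whose sign changed (from -0.02 to 0.02 under centring and under quantile normalization), and no gene moved by more than 0.12. Over all genes, 3788, 786 and 4200 passed a 1.2-fold threshold and 414, 43 and 777 a 2-fold threshold, against 1593, 178 and 2007 at 1.5-fold; the dim filter and scaling alternatives stayed within 1.5 times those counts. Signal over background limits Ifng most, since its empty vector value is dim.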

Other observations

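The run of protease genes that holds Gzmb had 4 genes past the dim filter, Gzmb itself among them. On the Plin2 array Gzmb and Gzmc were higher and the 2 mast cell protease genes lower. Gzmb was chosen with its own difference known, so Gzmc is the only other granzyme in this contrast. The run was taken from Cma1 to Gzmb in RefSeq gene order, so genes beyond either end were not looked at. It holds 21 genes of the granzyme and mast cell protease families and their relatives, cathepsin G among them. Of these, 12 had a probe set. This set was put together after the values were seen. The other 8 measured were dim. With Plin2, Gzmf and several mast cell protease genes were equal to the control, Mcpt9 was at 0.25, Mcpt3 at -0.09 and Mcpt10 at -0.47. Gzmb and Gzmc were higher with Plin2, by 2.14 and 1.31. The Gzmc size is uncertain, because its empty vector level is little above the dim level. The mast cell chymase gene Cma1 stood at 6.81 on the empty vector array, 5.91 on the Plin2 array and 6.99 on the Plin5 array, a Plin2 difference of -0.90. Mcpt1l1, named as a relative of mast cell protease 1, stood at 8.78, 7.48 and 9.16, a difference of -1.29. The mast cell marker Cpa3, a carboxypeptidase, was at -1.20 and Tpsab1, a tryptase, at -0.52, and the median of 6 mast cell markers was -0.46. With Plin5 these markers had a median of 0.00, with Cpa3 at 0.27 and Cma1 at 0.18.

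Helper T cell, inhibitory receptor and B cell genes were also listed. Of 4 helper and regulatory T cell genes past the dim filter, 0 were higher by 1.5-fold with Plin2 (median 0.34). Over all genes that share was 8.84%. Cd4, which rat macrophages also carry, was at 0.52, Gata3 at 0.53 and Foxp3 at 0.17. With Plin5 Cd4 was at -0.40. The inhibitory receptor genes Pdcd1 (0.34) and Lag3 (0.28) lay well under Btla (0.94), which stood at 5.68, 6.62 and 5.40. In the B cell list Cd79b (6.55) and Blk (5.83) were equal on all 3 arrays, whereas the plasma cell gene Jchain stood at 7.62, 8.12 and 5.76, a difference of -1.85 with Plin5. Of 7 neutrophil markers 1 passed the dim filter, Csf3r, at 1.66 with Plin2 and -0.35 with Plin5; monocytes express it as well.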
